A study of Mus musculus with 26 samples.

Results

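The comparison described here sets the lacrimal gland at 8 weeks of age against the same gland at 4 weeks in male mice of the autoimmune-prone strain C57BL/6.NOD-Aec1Aec2. Arrays were taken into it by their titles, 4 from 4 weeks and 6 from 8 weeks, which makes 10 of the 26 arrays of the series. All genes were examined with 1 probe set each, and 12377 of 18194 genes passed the filter on low values and were tested. In the study's description 4 weeks stands before disease and 8 weeks in an early pre-clinical stage. The other arrays, at 12, 16 and 20 weeks, entered the fit through the shared estimate of each gene's spread. They also entered the choice of probe set and the filter, which were both made over all 26 arrays.

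Mice of every age carried the NOD-derived regions Idd3 (Aec1) and Idd5 (Aec2) in an otherwise C57BL/6 background, and no treatment is given. No group of another strain or of females was analysed here, so ageing of the gland, sexual maturation and early disease cannot be told apart. Titles call the arrays biological replicates without saying how many animals each one stands for. The p-values therefore rest on the spread among these arrays, which may be partly technical. RNA came from whole glands, so more cells of a type and more RNA per cell cannot be told apart.

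The lacrimal gland makes the watery part of tears. Its acinar cells secrete antimicrobial proteins such as lactoferrin and lysozyme, and carry dimeric IgA, made by plasma cells in the gland, across to the tear fluid on the polymeric immunoglobulin receptor. In mice the gland matures around weaning and puberty, when androgens give the male gland a form and a set of transcripts that differ from those of females. Macrophages and other antigen-presenting cells live between the acini in healthy glands.

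Markers of the labelled tissue averaged 8.37 at 4 weeks and 8.49 at 8 weeks over 11 kept members, with overlap. The median log2 change of these members was -0.17, and 5 of the 11 changes were above 0. Of the 11 members 2 were called higher and 0 lower, and 1 was near background at both ages. Chrm3, Barx2 and Lhx2 of the same list had low values at both ages and did not pass the filter. Aqp5, the water channel of acinar cells, averaged 10.41 ± 0.60 (SD, n = 4) at 4 weeks and 10.90 ± 0.35 (SD, n = 6) at 8 weeks on the log2 scale, and Sox10, a transcription factor of lacrimal acinar cells, averaged 7.77 ± 0.59 and 7.11 ± 0.35. Neither change passed the test (limma adjusted p = 0.748 and 0.282), and for both genes the ages overlapped. Markers of a neighbouring gland varied from array to array. The mean of 11 salivary gland genes was 12.11, 7.21, 8.67 and 10.57 on replicates 1 to 4 of 4 weeks and ran from 6.68 to 11.49 at 8 weeks, with overlap and 0 of 11 members called. Within that list Smgc, a secreted protein of immature submandibular and sublingual glands, stood at 14.48 on 4 weeks replicate 1 and at 7.26 on 8 weeks replicate 1, while the remaining 8 arrays lay between 3.16 and 4.13. The share of these genes in the results below was not tested beyond the fits without those arrays and with the salivary mean as a covariate. Keratinised skin genes averaged 4.12 to 4.27 at 4 weeks and 4.56 to 4.97 at 8 weeks over 6 members. Of these only Sbsn, a protein of cornified epithelium, was called (2.46 ± 0.53 SE, adjusted p = 0.022). Its call was lost without 4 weeks replicate 3 (adjusted p = 0.0792) and in 4 other refits that left out 1 array. Adipose tissue genes overlapped between the ages, at 3.79 to 4.63 and 3.91 to 4.62. The mean of 5 Harderian and sebaceous gland genes was 5.28 to 5.48 at 4 weeks and higher on all 6 arrays of 8 weeks, up to 5.99. Its 1 called member was Scd1, and the part of this tissue in the change of Scd1 was not tested.

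**Figure D1:**
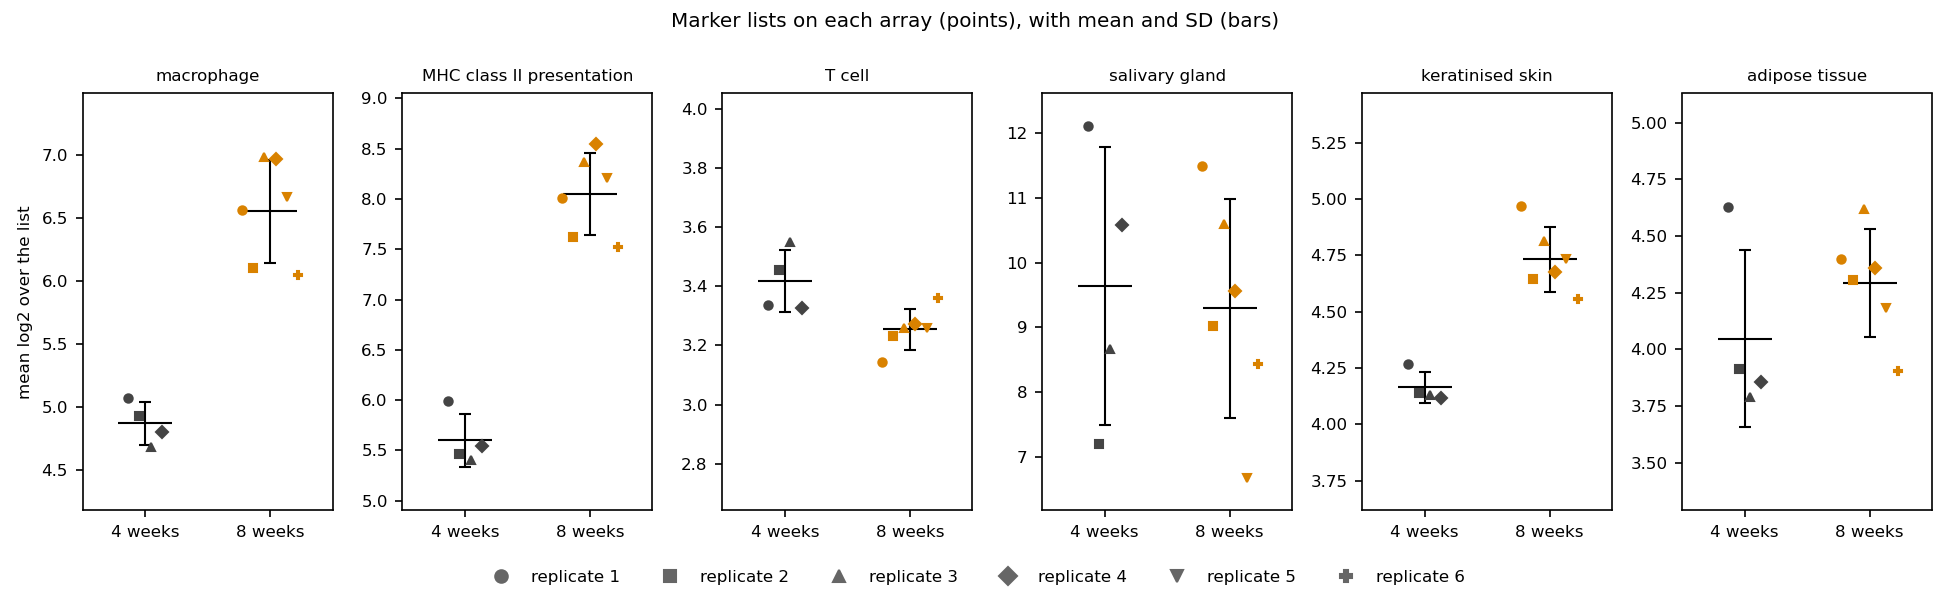
Mean log2 expression over the kept members of 6 marker lists on each array (points, 1 shape per replicate number) at 4 and 8 weeks, with group mean and SD (bars); each panel has its own vertical axis. Macrophage, MHC class II and keratinised skin means were higher on all 6 arrays of 8 weeks, while the salivary gland mean ran from 6.68 to 12.11 across both ages.

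Between 4 and 8 weeks 168 genes changed at an adjusted p under 0.05 by limma, 1.36 percent of those tested. Of these 141 were higher at 8 weeks (1.14 percent) and 27 lower (0.218 percent). Before adjustment 1748 of the 12377 genes had a limma p under 0.05. The median log2 change of all 12377 genes was 0.03, and 52.5 percent of changes were above 0. Of the calls 83.9 percent were higher, and the share was 77.1 percent after quantile normalization and 85.9 percent with each array centred on its median. Without the filter it was 77.6 percent, from 97 higher and 28 lower genes. With the spread of each array's log2 values as a covariate it was 61.8 percent, from 118 higher and 73 lower genes. Those spreads ran from 1.78 to 2.07 at 4 weeks and from 1.95 to 2.27 at 8 weeks. In 122 of the 141 higher genes every array of 8 weeks lay above every array of 4 weeks, an order found in 3.34 percent of all genes. In 21 of the 27 lower genes every array of 8 weeks lay below, which held for 3.06 percent. At least a 4-fold change was reached by 61 higher and 4 lower genes, and the median log2 change was 1.76 and -1.02. Low signal limits these sizes. A mean under 4.04, within 1 log2 unit of the typical array median, is called near background here, and 60 of the 141 higher genes were near background at 4 weeks and 18 of the 27 lower genes at 8 weeks. Their fold changes depend on how background was set, and whether they are too small or too large was not tested. The words at least before the change of such a gene mark a group mean near background, not a proven lower bound. Single arrays of that group can lie above the limit, as Mxra8 (4.96) and Fap (4.72) did on 4 weeks replicate 1. The count of 168 was 60, 70 and 84 without replicates 2, 3 and 4 of 4 weeks. It was 88, 106, 93, 68 and 380 without replicates 1, 2, 3, 4 and 6 of 8 weeks, and 415 without 20 weeks replicate 1, an array of low spread. The 27 lower genes became 49 without 4 weeks replicate 1. On that array the 3′ minus 5′ signal, a measure of RNA integrity, was 3.83 for Gapdh and 4.10 for actin. The other arrays of 4 and 8 weeks had -0.08 to 1.52 and 1.87 to 3.11. A fit with the actin difference as a covariate called 133 genes (110 higher, 23 lower). The part of RNA quality in the calls was not tested further.

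**Figure D2:**
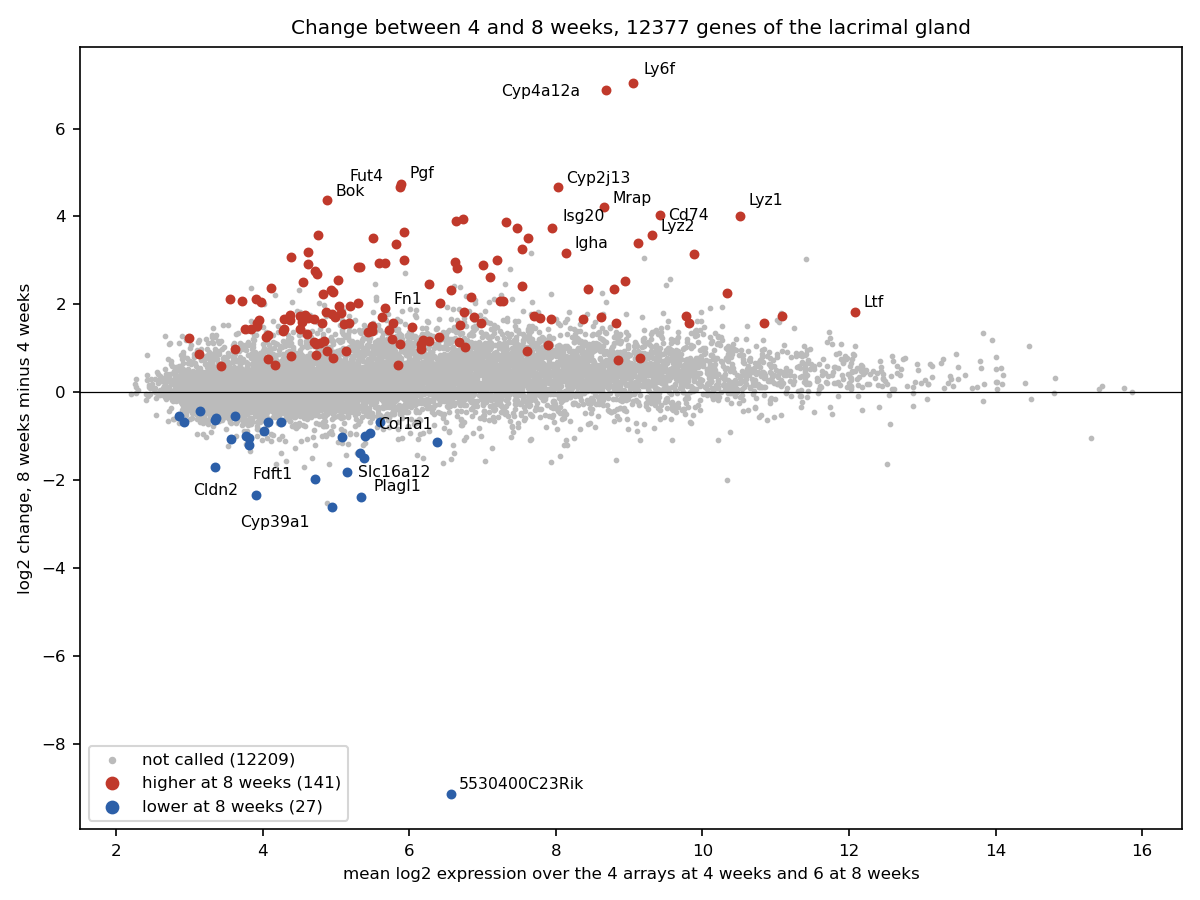
Each point is 1 of 12377 genes, placed by its mean log2 expression over the 10 arrays (horizontal) and its log2 change, 8 weeks minus 4 weeks (vertical). The 141 genes called higher reach 7.05 (Ly6f), the 27 called lower reach -9.12 (5530400C23Rik), and most other calls lie within 4 units of 0.

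The upstream sequences of genes at both ends of the comparison, and of a pair of class II genes that rose together, are shown first because they let the genes be placed. They are from RefSeq (build GRCm38.p6), 5′ to 3′ on the gene's own strand, and end at the base before the annotated transcription start. In the gene with the largest fall and the gene with the largest rise, capitals mark TATAAA, the core of a TATA box, searched on both strands. The 100 bases before 5530400C23Rik (chr6:133292116-133292215, plus strand) and the 200 bases before Ly6f (chr15:75268221-75268420, plus strand) read:
5530400C23Rik: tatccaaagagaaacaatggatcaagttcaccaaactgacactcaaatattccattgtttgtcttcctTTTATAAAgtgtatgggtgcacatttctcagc
Ly6f: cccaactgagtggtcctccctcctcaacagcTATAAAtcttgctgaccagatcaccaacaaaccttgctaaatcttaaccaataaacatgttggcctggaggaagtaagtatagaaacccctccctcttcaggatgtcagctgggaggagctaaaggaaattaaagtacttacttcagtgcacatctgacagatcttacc
In 5530400C23Rik the motif began 30 bases before the start on the gene's strand, and the opposite strand held it too, overlapping by sharing the run TTTATAAA. In Ly6f it lay 169 bases before the start, and is given as a sequence match, not as the TATA box of that start. The longer stretch of 200 bases was printed for Ly6f, which brings this match into view. TATAAA was present on either strand in 13.6 percent of all 32851 promoter windows, which span 250 bases before to 50 after a start. In the windows of higher genes the share was 12.7 percent (18 of 142 windows of 103 genes) and in those of lower genes 20.0 percent (4 of 20 windows of 18 genes). Only 121 of the 168 called genes had a window, and several windows can belong to 1 gene.

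For a pair of genes that encode chains of MHC class II molecules, capitals mark CTGATTGG, the Y box that class II promoters are known to share, again searched on both strands. The 100 bases before H2-Eb1 (chr17:34305767-34305866, plus strand) and H2-Aa (chr17:34287824-34287923, minus strand) read:
H2-Eb1: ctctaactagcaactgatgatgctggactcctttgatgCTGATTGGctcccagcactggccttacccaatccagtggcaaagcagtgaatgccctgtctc
H2-Aa: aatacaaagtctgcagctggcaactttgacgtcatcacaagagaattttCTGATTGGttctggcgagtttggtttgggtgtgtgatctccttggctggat
The motif began 62 bases before the start of H2-Eb1 and 51 bases before that of H2-Aa. It was present in 4.10 percent of all promoter windows, and in 7.75 percent of the windows of higher genes (11 of 142). In RefSeq the genes H2-Ab1, H2-Aa and H2-Eb1 follow each other on chromosome 17.

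The largest increases were in Ly6f, a trio of genes for lipid oxidation and hormone response, and genes near background at 4 weeks. Ly6f belongs to the Ly6 family of small proteins anchored to the cell surface. Its log2 level was 4.32, 4.05, 7.82 and 3.09 on replicates 1 to 4 of 4 weeks, an order kept for every gene below, and 11.34 to 12.26 at 8 weeks (median 11.98). The ages were far apart, although replicate 3 of 4 weeks was several units above its fellows. The change was 7.05 ± 0.63 SE, or 132-fold (adjusted p = 3.28e-07). Among the 5 kept genes of the Ly6 and uPAR family it was the 1 member called.

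Cyp4a12a, a fatty acid hydroxylase known from the kidney of male mice, stood at 4.52, 4.67, 4.78 and 4.25 at 4 weeks and at 10.99 to 11.77 at 8 weeks (median 11.40). Its 4 young arrays were tightly grouped, and the change of 6.88 ± 0.48 amounted to 117-fold (adjusted p = 5.13e-09). Cyp2j13, a cytochrome P450 of the family that oxidises polyunsaturated fatty acids, stood at 5.48, 4.46, 8.04 and 2.94 and then at 9.69 to 10.11 (median 9.91). Here the 4 week arrays spread over 5 units while the 6 arrays of 8 weeks nearly coincided, and the change was 4.67 ± 0.69 (adjusted p = 0.000766). Mrap helps the receptor of the pituitary hormone ACTH to reach the cell surface. It stood at 6.31, 6.01, 8.93 and 3.25 at 4 weeks and at 9.64 to 11.03 at 8 weeks (median 10.30), without overlap, a change of 4.22 ± 0.77 (adjusted p = 0.00519). Without replicate 4 of 4 weeks the change of Mrap was 3.26, and with only the arrays of the ages compared its adjusted p was 0.0512.

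Replicate 3 was thus the 4 week array nearest to 8 weeks, and replicate 4 the farthest, for Ly6f, Cyp4a12a, Cyp2j13 and Mrap. The same array order held for 5530400C23Rik, the gene that fell most, at 11.92, 12.07, 10.12 and 14.05. It did not hold for the called genes at large. Replicate 3 was the highest and replicate 4 the lowest of the 4 week arrays for 19 of the 141 higher genes. The highest 4 week value lay on replicate 1 for 60 of the 141, on replicate 2 for 19, on replicate 3 for 30 and on replicate 4 for 32.

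**Figure D3:**
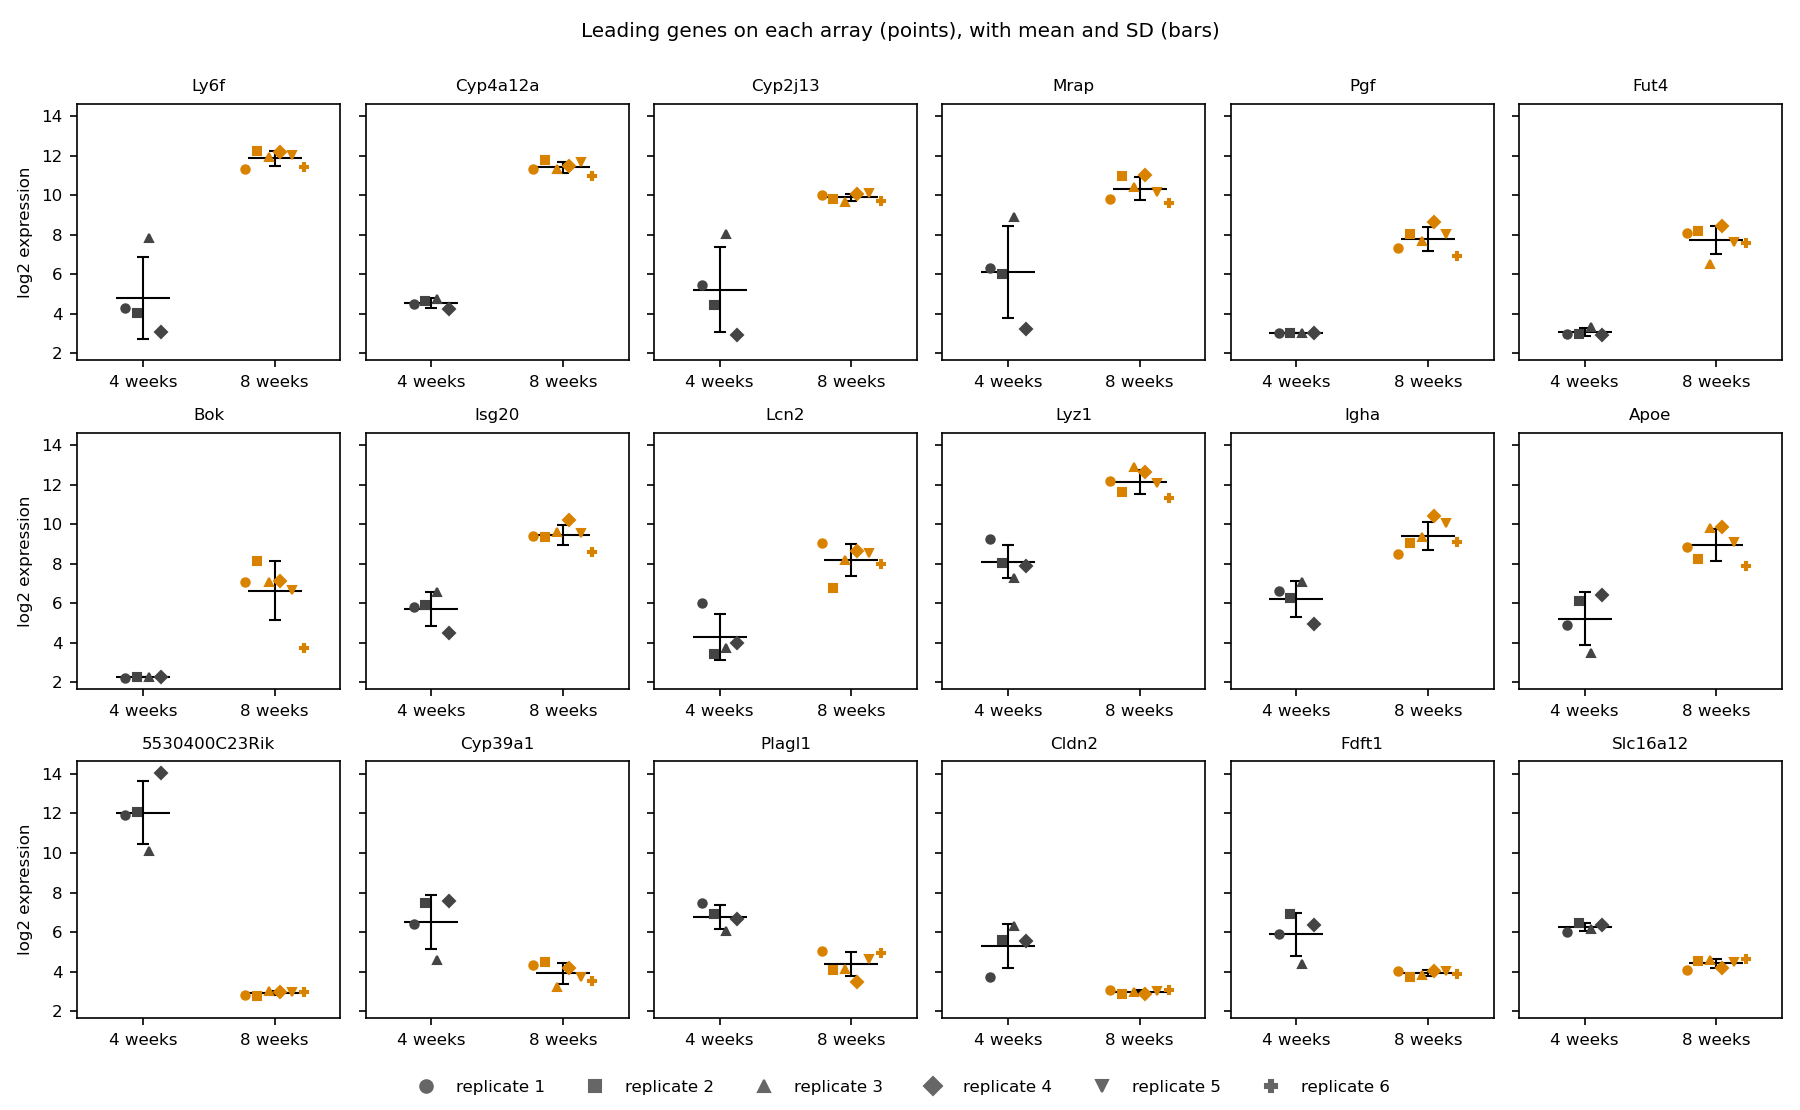
Log2 expression of 18 genes on each array (points, 1 shape per replicate number) at 4 and 8 weeks, with group mean and SD (bars), on a common vertical axis. In Ly6f, Cyp2j13 and Mrap replicate 3 of 4 weeks (triangle) is the highest and replicate 4 (diamond) the lowest young array, while Pgf, Fut4 and Bok were near background on all 4.

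A further set of genes went from near background to clear signal. Pgf, the placental growth factor, stood at 3.05, 3.05, 3.04 and 3.05 at 4 weeks and at 6.95 to 8.65 at 8 weeks (median 7.87), a change of at least 4.74 ± 0.72 (adjusted p = 0.000841). Fut4, which adds the fucose of Lewis-type sugars, stood at 2.96, 2.99, 3.36 and 2.95 and then at 6.51 to 8.44 (median 7.86), a change of at least 4.67 ± 0.72 (adjusted p = 0.001). The young values of Pgf lie at about the array median, and so do those of Fut4, with replicate 3 a little higher. Bok, a pore-forming member of the Bcl-2 family, was at 2.24 to 2.27 on the young arrays and at 3.74 to 8.12 at 8 weeks (median 7.07). Its change was at least 4.38 ± 0.64 (adjusted p = 0.000745), with replicate 6 of 8 weeks far below the other 5. Piwil4, of the Piwi family of small RNA binding proteins, stood at 3.55, 3.69, 4.38 and 3.58 and then at 6.46 to 7.89 (median 7.25), a change of at least 3.37 ± 0.55 (adjusted p = 0.00207). Sgk3, a kinase activated by growth factors and chosen after its values were seen, stood at 2.39 to 2.78 and then at 4.63 to 6.20 (at least 3.07 ± 0.44, adjusted p = 0.00066). None of these genes overlapped between the ages, and each kept its call in every refit without 1 array. The call of Piwil4 rests on a probe set of the _x kind, whose probes may bind other transcripts. Its other probe set was near background at 2.64 and 2.68.

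Some genes of tear proteins rose. Of 14 kept genes for innate antimicrobial secretion 6 were called higher and 0 lower, with a median log2 change of 1.46 against 0.03 over all genes, and 10 of the 14 changes were above 0. Lyz2, given below with the macrophage genes, is a member of both lists and is among these 6. Lyz1, the lysozyme of Paneth and other epithelial cells, stood at 9.24, 8.04, 7.29 and 7.87 at 4 weeks and at 11.34 to 12.89 at 8 weeks (median 12.12). All old arrays were above all young ones, by 4.02 ± 0.52 (adjusted p = 0.000187). Its neighbour in the genome is Lyz2, the lysozyme of myeloid cells, and probe sets may not separate the transcripts of this near-identical pair. Both probe sets of Lyz1 that rose are of the _x kind, whose probes may bind other transcripts, and the remaining probe set, not of that kind, was near background at 2.80 and 2.86. Lcn2, the iron-sequestering lipocalin 2, stood at 5.99, 3.43, 3.76 and 4.00 and then at 6.76 to 9.05 (median 8.36). Its change was 3.90 ± 0.70 (adjusted p = 0.00455), with replicate 1 the highest of the young arrays.

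Clu, Ltf and Pigr already had high signal at 4 weeks. Clu, the extracellular chaperone clusterin, went from 9.92, 9.90, 10.10 and 9.63 to between 10.58 and 12.26 (median 11.38), a change of 1.58 ± 0.27 (adjusted p = 0.00297; 0.199 after quantile normalization). Its 3 other probe sets differed by 2.51, 2.87 and 3.34, so the size of this rise rests on the probe set taken. Ltf, the iron-binding lactoferrin of tears, went from 9.71, 11.38, 10.92 and 11.92 to between 12.05 and 13.18 (median 12.92), a change of 1.84 ± 0.41 (adjusted p = 0.0241). Pigr, the polymeric immunoglobulin receptor, went from 9.57, 8.93, 10.21 and 11.45 to between 11.31 and 12.27 (median 11.78). The ages overlapped for Pigr, since replicate 4 of 4 weeks lay above the lowest array of 8 weeks, and its change of 1.74 ± 0.44 was just past the threshold (adjusted p = 0.0495). Its call was lost in 23 of 26 refits without 1 array, with the highest adjusted p, 0.231, without 4 weeks replicate 2. Ltf lost its call in 5 refits, the weakest without 4 weeks replicate 3 (adjusted p = 0.0885).

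The partner of the IgA receptor rose as well. Igha, the constant region of IgA, stood at 6.63, 6.26, 7.06 and 4.96 at 4 weeks and at 8.49 to 10.40 at 8 weeks (median 9.22). The change was 3.18 ± 0.60 (adjusted p = 0.00666), and every old array lay above every young one. Of 6 kept plasma cell and immunoglobulin genes Igha and Pigr were called, and Pigr is the receptor of acinar cells named above. Mzb1, Tnfrsf17, Prdm1 and Irf4 of the same list had low values at both ages and did not pass the filter. Isg20, an interferon-inducible exonuclease, stood at 5.81, 5.91, 6.59 and 4.50 and then at 8.59 to 10.21 (median 9.48), without overlap and with a change of 3.75 ± 0.70 (adjusted p = 0.00608). Among 20 kept genes of regulated exocytosis the 1 member called was Rab26, a small GTPase of secretory granules. It was near background at 4 weeks (3.25 to 3.75) and reached 4.20 to 5.96 at 8 weeks (at least 1.74 ± 0.43, adjusted p = 0.0418), a call lost in 13 refits (adjusted p up to 0.133 without 4 weeks replicate 3). None of 22 kept genes of water and ion transport was called by limma, against 1.36 percent of all genes. An unadjusted p under 0.05 was found for 4 of these 22, against 1748 of all 12377 genes.

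Enzymes that build the sugar chains of secreted proteins changed in part. Of 19 kept fucosyl and sialyl transferases 3 were called higher and 0 lower, while the median change of the list was -0.09. Besides Fut4 these were Fut8, which adds the core fucose of N-glycans, and St6galnac2, which adds sialic acid to O-glycans. Fut8 went from 5.60, 5.64, 5.66 and 5.73 to between 6.43 and 8.75 (median 7.44), a change of 1.82 ± 0.41 (adjusted p = 0.0255). Another probe set of Fut8 above background differed by -0.82, so the probe sets of this gene disagree. St6galnac2 went from 6.56, 6.66, 7.01 and 6.36 to between 8.14 and 8.67 (median 8.39), a change of 1.75 ± 0.42 (adjusted p = 0.0379). Without 4 weeks replicate 2 neither of these passed (adjusted p = 0.0889 and 0.113). Galnt11, which starts O-linked chains, rose by a smaller amount, from 3.86 to 3.93 near background to between 4.55 and 4.96 (at least 0.83 ± 0.12, adjusted p = 0.000811).

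Of 7 kept genes of MHC class II presentation 5 were called higher and 0 lower, and the list median was 3.15. Ciita, H2-Oa and H2-Ob of the same list had low values at both ages and did not pass the filter. H2-Ab1 and H2-Aa encode the beta and alpha chains of the I-A molecule. H2-Ab1 stood at 6.05, 5.25, 5.30 and 5.44 at 4 weeks and at 8.19 to 9.68 at 8 weeks (median 9.25), a change of 3.51 ± 0.51 (adjusted p = 0.00066). H2-Aa stood at 8.42, 7.84, 8.27 and 7.46 and then at 10.56 to 11.59 (median 11.30), a change of 3.15 ± 0.65 (adjusted p = 0.0147). H2-Eb1, the beta chain of the I-E molecule, stood at 5.51, 4.57, 4.81 and 5.11 and then at 8.03 to 9.46 (median 8.93), a change of 3.87 ± 0.70 (adjusted p = 0.00455). All old arrays lay at least 2 log2 units above all young ones for each of these 3 genes.

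Cd74, the invariant chain that guards the peptide groove of class II molecules, stood at 7.53, 7.15, 6.31 and 7.01 and then at 10.03 to 11.52 (median 11.17), a change of 4.02 ± 0.84 (adjusted p = 0.0166). Ctss, the cathepsin that cleaves Cd74, stood at 8.22, 7.20, 6.59 and 7.55 and then at a median of 9.77 and at most 10.35, a change of 2.35 ± 0.52 (adjusted p = 0.0247). Both had every old array above every young one. The adjusted p of Cd74, H2-Aa and Ctss rose to 0.0816, 0.0601 and 0.121 in their weakest refits, without 4 weeks replicate 3, 2 and 3. The remaining kept members, H2-DMa and H2-DMb2, which load peptides, differed by 0.31 and -0.09 at levels near background or just above it. On MHC class I, 0 of 11 kept members were called, with a median of 0.65. H2-D1 averaged 10.09 and 11.69 and H2-K1 9.12 and 10.54, both without overlap (adjusted p = 0.151 and 0.18). Without 20 weeks replicate 1 another probe set of H2-K1 was taken, with a change of 2.26 (adjusted p = 0.0107).

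Of 23 kept macrophage genes 9 were called higher and 0 lower, the median was 1.68, 21 changes were above 0, and 16 had all old arrays above all young ones. Cd14, Cd163 and Timd4 of that list had low values at both ages and did not pass the filter. The list mean per array was 4.68 to 5.08 at 4 weeks and 6.05 to 6.99 at 8 weeks. C1qa, C1qb and C1qc encode the chains of C1q, the starter of the classical complement pathway that tissue macrophages make. C1qa stood at 4.43, 4.62, 3.21 and 5.23 and then at 7.54 to 8.88 (median 8.38), a change of 3.93 ± 0.68 (adjusted p = 0.00297). C1qb stood at 8.34, 7.52, 6.80 and 7.02 and then at 9.37 to 10.37 (median 10.04), a change of 2.53 ± 0.47 (adjusted p = 0.00624). C1qc was near background at 2.92, 2.62, 2.18 and 3.09 and then at 5.15 to 6.86 (median 5.87), a change of at least 3.20 ± 0.55 (adjusted p = 0.00297). Replicate 3 was the lowest young array for each chain. In RefSeq the genes of these chains are adjacent on chromosome 4.

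Replicate 3 was also the lowest young array for Lyz2, at 7.74, 7.49, 5.73 and 7.70, and reached 10.22 to 11.30 at 8 weeks (median 10.69; 3.59 ± 0.52, adjusted p = 0.00066). Mpeg1, a pore-forming protein of macrophages, went from between 6.29 and 7.47 to between 7.80 and 8.88 (1.68 ± 0.32, adjusted p = 0.00741; 0.0544 after quantile normalization). Tyrobp and Fcer1g, signalling adaptors of myeloid receptors, and Laptm5 were chosen after their values were seen. They changed by 2.33 ± 0.50 (adjusted p = 0.0208) and by at least 1.76 ± 0.43 (adjusted p = 0.0424). In their weakest refits, without 4 weeks replicate 3 and 2, the adjusted p was 0.0891 and 0.123. Laptm5, a lysosomal protein of blood cells, was called too (2.90 ± 0.73, adjusted p = 0.0461), but 18 refits lost it (adjusted p up to 0.204 without 4 weeks replicate 3) and another probe set gave -0.44, so its direction rests on the probe set chosen. Ccl9, a myeloid chemokine, stood at 6.33, 7.10, 7.51 and 7.35 and then at 9.67 to 11.02 (median 10.59), without overlap (3.41 ± 0.51, adjusted p = 0.00078). Ccl8, a chemokine that attracts monocytes, was near background at 2.58 to 2.66 and reached 4.06 to 7.72 (at least 3.57 ± 0.88, adjusted p = 0.0424), a call lost in 14 refits (adjusted p up to 0.122 without 4 weeks replicate 2). These were the 2 chemokines called among 23 kept.

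Apoe, the lipid carrier that macrophages secrete, stood at 4.88, 6.11, 3.50 and 6.40 and then at 7.90 to 9.87 (median 8.96), a change of 3.73 ± 0.88 (adjusted p = 0.0354) that reached 0.169 without 4 weeks replicate 3. Cotl1, an actin-binding protein, rose by 3.27 ± 0.73 (adjusted p = 0.0247). Replicate 1 of 4 weeks, at 8.00, overlapped the 8 week arrays for Cotl1, and other probe sets of the gene differed by 0.27 to 1.24. Pan-leukocyte genes chosen after their values were seen were called as well. Ptprc, the leukocyte common antigen CD45, was near background at 2.24 to 3.19 and reached 4.87 to 6.65 (at least 2.93 ± 0.63, adjusted p = 0.0205), and Cd52, a surface peptide of leukocytes, changed by at least 2.86 ± 0.71 (adjusted p = 0.0453). Their weakest refits, without 4 weeks replicate 3 and 2, gave 0.0896 and 0.148, and Cd52 lost its call in 19.

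Markers of lymphocytes were low at both ages. Of 6 kept T cell, 2 B cell and 3 NK and cytotoxic genes none was called by limma, with 1, 0 and 1 at an unadjusted p under 0.05. Over all genes 1.36 percent were called and 1748 of 12377 had an unadjusted p under 0.05, so lists this short can be without a call. The T cell mean lay between 3.14 and 3.55 on all 10 arrays, near background. No call was made either among 6 dendritic cell genes (3 at an unadjusted p under 0.05), 6 mast cell genes (0) and the 1 kept neutrophil gene (0). Of 19 kept genes of the type I interferon response none was called and 6 had an unadjusted p under 0.05, Ifih1, a sensor of viral RNA, being nearest at 1.70 ± 0.45 (adjusted p = 0.0595).

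Of 11 kept fibroblast genes 0 were called higher and 1 lower, at a median of -0.07, with 4 changes above 0. A pair of genes outside the lists rose. Mxra8, a membrane protein of matrix-producing cells, stood at 4.96, 3.48, 2.82 and 3.70 and then at 6.86 to 8.39 (median 7.14), a change of at least 3.65 ± 0.60 (adjusted p = 0.00207). Fap, the fibroblast activation protease, stood at 4.72, 3.01, 3.49 and 2.35 and then at 6.40 to 7.43 (median 6.84), a change of at least 3.52 ± 0.60 (adjusted p = 0.00278). Replicate 1 was the highest young array for both, and the ages did not overlap. Of 34 kept collagen and matrix genes 1 was called higher and 1 lower, at a median of -0.21, and 8 of 34 changes were above 0. Fn1, the adhesive matrix protein fibronectin, went from 4.69, 4.38, 4.39 and 4.66 to between 5.67 and 7.65 (median 6.35; 1.91 ± 0.37, adjusted p = 0.00823). Col1a1, the main chain of type I collagen, fell from 6.77, 5.94, 5.38 and 5.99 to between 4.92 and 5.35 (median 5.06), a change of -0.93 ± 0.22 (adjusted p = 0.0324; 0.0976 without 4 weeks replicate 1). It is the fibroblast gene called, and its other probe set differed by -1.94. Mmp3, a protease that digests matrix, averaged 3.65 and 5.63 and missed the threshold (adjusted p = 0.0557).

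Of 37 kept growth factor and angiogenesis genes 3 were called higher and 0 lower, at a median of -0.02. Besides Pgf these were Igfbp2, a binding protein of insulin-like growth factors (1.71 ± 0.40, adjusted p = 0.0303), and Ccn2, the connective tissue growth factor (at least 1.70 ± 0.41, adjusted p = 0.0392). In both the ages overlapped, at 5.47 to 6.44 against 6.36 to 8.23 for Igfbp2 and at 2.76 to 4.48 against 4.14 to 6.53 for Ccn2. Neither passed without 4 weeks replicate 2, 3 or 4, with an adjusted p up to 0.128 for Igfbp2 and 0.194 for Ccn2. Among 26 kept immediate early genes 2 were called. Fos went from near background at 2.54, 2.59, 2.28 and 2.44 to between 3.18 and 5.55 (at least 2.09 ± 0.31, adjusted p = 0.000811), and Ier3 rose by 1.71 ± 0.42 with overlap (adjusted p = 0.0411, and 0.148 without 4 weeks replicate 2). In the apoptosis list of 25 kept genes the 3 called were Bok, the death receptor adaptor Fadd (at least 0.62 ± 0.15, adjusted p = 0.0313) and the caspase inhibitor Birc3 (0.93 ± 0.23, adjusted p = 0.0424). Fadd and Birc3 lost their calls in 8 and 13 refits, with an adjusted p up to 0.0985 and 0.117.

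Cytochrome P450 genes were called in both directions. Of 24 kept members 3 were called higher and 2 lower, at a median of -0.08. Cyp27a1, the sterol 27-hydroxylase of mitochondria, rose from 4.45, 4.42, 3.97 and 3.67 to between 6.25 and 7.73 (median 7.24), a change of 3.01 ± 0.63 (adjusted p = 0.0166). Cyp39a1, an oxysterol hydroxylase, fell from 6.38, 7.46, 4.60 and 7.56 to between 3.19 and 4.49 (median 3.94), a change of at least -2.59 ± 0.56 (adjusted p = 0.0215). Replicate 3 was again the young array nearest to 8 weeks for Cyp39a1. Cyp2b19, an epoxygenase of the epidermis, fell from 3.05, 4.88, 3.33 and 6.18 to background at 2.61 to 2.72 (at least -1.69 ± 0.35, adjusted p = 0.0159; -1.09 without 4 weeks replicate 4). In the weakest refits the adjusted p was 0.0639 for Cyp27a1 without 4 weeks replicate 3, and 0.111 and 0.0889 for Cyp39a1 and Cyp2b19 without 4 weeks replicate 2.

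None of 33 kept genes of fatty acid oxidation was called by limma, and 4 had an unadjusted p under 0.05. Scd1, the desaturase that makes monounsaturated fatty acids, rose from 8.33, 8.40, 9.44 and 9.71 to between 10.61 and 11.86 (median 11.30), a change of 2.27 ± 0.49 (adjusted p = 0.0219). It was the 1 member called among 23 kept genes of fatty acid synthesis. Fdft1, the squalene synthase, fell from 5.88, 6.92, 4.39 and 6.36 to between 3.73 and 4.04 (median 3.96), a change of at least -1.96 ± 0.35 (adjusted p = 0.00455), and was the 1 member called among 18 kept genes of cholesterol synthesis. Prkaa2, a catalytic subunit of the energy sensor AMPK, fell by 1.39 ± 0.35 on the log2 scale (adjusted p = 0.0461) with overlap, and replicate 1 of 4 weeks, at 8.08, was well above its 3 fellows (5.12 to 6.18). Without that array the change of Prkaa2 was -0.75 (adjusted p = 0.0595). Its call was lost in 19 refits, with an adjusted p up to 0.136 without 4 weeks replicate 2, and that of Scd1 in 4, with one of 0.101 without the same array. Sult1a1, a sulfotransferase of phenols, rose by at least 1.59 ± 0.36 (adjusted p = 0.0298, and 0.0914 without 4 weeks replicate 2), and Fmo5, a flavin monooxygenase, missed the threshold at 1.93 ± 0.50 (adjusted p = 0.0557) although the ages did not overlap. Slc6a6, the taurine transporter, rose by 1.39 ± 0.34 (adjusted p = 0.0443), a call lost in 17 refits (adjusted p up to 0.140 without 4 weeks replicate 2).

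The decreases were headed by 5530400C23Rik, known by a clone-derived name alone. After 11.92, 12.07, 10.12 and 14.05 at 4 weeks it stood at 2.78 to 3.00 on all 6 arrays of 8 weeks (median 2.98). The fall of at least 9.12 ± 0.39 on the log2 scale, 557-fold, ended near background (adjusted p = 2.92e-13). In RefSeq its nearest neighbours on chromosome 6 are Smim10l1 and Gm5885, with Kap beyond. Smim10l1 differed by 0.09 (adjusted p = 0.912), and the other 2 did not pass the filter. Of 4 kept genes for secreted exocrine peptides and secretoglobins it was the 1 member called.

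Genes of an imprinted network linked to growth after birth fell in part. Of 13 kept members 0 were called higher and 2 lower, at a median of -0.12. Plagl1, the zinc finger regulator of that network, stood at 7.49, 6.91, 6.03 and 6.65 at 4 weeks and at 3.46 to 5.06 at 8 weeks (median 4.40), a change of -2.38 ± 0.41 (adjusted p = 0.00311). Its 2 other probe sets were near background at both ages and differed by -0.13 and -0.08, so the call rests on a probe set of the _x kind. Ndn, the growth suppressor necdin, stood at 5.96, 6.00, 6.04 and 5.96 and then at 4.49 to 5.49 (median 5.06), a change of -0.99 ± 0.22 (adjusted p = 0.0235; 0.0864 without 4 weeks replicate 3). The probe set of Ndn is of the _x kind too, and its other probe sets above background differed by -0.56, -0.73 and -0.96. Its call was lost after quantile normalization, with the mean of its probe sets and without _x and _s probe sets. The adjusted p reached 0.411 over all alternatives. Neither gene overlapped between the ages.

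Other decreases concerned membrane and regulatory proteins. Cldn2, the claudin of leaky tight junctions, fell from 3.74, 5.61, 6.30 and 5.55 to background at 2.87 to 3.09 (at least 2.32 ± 0.50 lower, adjusted p = 0.0218; 0.117 without 4 weeks replicate 3). Slc16a12, a transporter of creatine and related solutes, fell from 6.00, 6.47, 6.13 and 6.38 to between 4.08 and 4.65 (median 4.52), a change of -1.82 ± 0.15 (adjusted p = 1.07e-07). The SD was 0.22 at 4 weeks and 0.23 at 8 weeks, and the ages did not overlap. Trim24, a chromatin reader and cofactor of nuclear receptors, fell by 1.49 ± 0.33 on the log2 scale (adjusted p = 0.0239; 0.0914 without 4 weeks replicate 2), and N4bp2, a DNA-nicking protein, by 1.12 ± 0.22 (adjusted p = 0.00883; 0.0647 without 4 weeks replicate 2).

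Most of the smaller falls ended near background. Tmem117, a membrane protein, fell by at least 0.98 ± 0.14 (adjusted p = 0.000642) and Celf4, an RNA-binding protein, by at least 1.03 ± 0.18 (adjusted p = 0.00312). Cdrt4 fell by at least 1.20 ± 0.20 (adjusted p = 0.00209) with overlap, as replicate 1 of 4 weeks stood at 3.42 against 4.78 to 5.03, and with only the arrays of the ages compared it did not pass (adjusted p = 0.0697). The mean over the probe sets of Celf4 differed by -0.34 (adjusted p = 0.154). Slc41a3, a magnesium transporter, fell by at least 1.07 ± 0.25 (adjusted p = 0.0303; 0.167 without 4 weeks replicate 3) and Prss22, a serine protease of airways, by at least 0.89 ± 0.21 with overlap (adjusted p = 0.0354; 0.188 without 4 weeks replicate 3). Foxred2, a protein of the endoplasmic reticulum, fell by 1.02 ± 0.23 (adjusted p = 0.0239; 0.0929 without 4 weeks replicate 2).

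Several large lists lay to 1 side of 0 without called members. None of 52 kept oxidative phosphorylation genes was called by limma, with 5 at an unadjusted p under 0.05, yet 49 of 52 changes were above 0 against 52.5 percent of all genes, and the median was 0.56. The same description holds for 29 ribosomal protein genes (29 above 0, median 0.37, 3 at an unadjusted p under 0.05). It holds for 35 genes of transport from the endoplasmic reticulum to the Golgi (32, 0.47, 1) and for 25 chaperones of the endoplasmic reticulum (23, 0.40, 1). Members of such lists share their arrays, and none of these medians carries a test. Beside the counts in this paragraph stand 1.36 percent of all genes called by limma and 1748 of 12377 at an unadjusted p under 0.05. The list means were high, from 9.38 to 11.78 at 4 weeks, and each overlapped between the ages. Genes of high signal lay above 0 more generally, since the median change was 0.26 over 8031 genes kept at the 75th percentile of each array. It was 0.03 over all genes kept. Of 36 kept cell cycle genes none was called either (median -0.08, 3 at an unadjusted p under 0.05), and among 34 genes of DNA replication and histones the 1 member called was Tk1, the thymidine kinase of dividing cells. Tk1 was near background at 2.68 to 3.60 and rose by at least 1.51 ± 0.34 (adjusted p = 0.0247; 0.111 without 4 weeks replicate 2). Of 18 kept receptors of steroid and growth hormones and their partners Mrap was the 1 member called, and of 8 kept candidate genes of the NOD-derived regions and disease antigens none was, with 0 at an unadjusted p under 0.05.

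**Figure D4:**
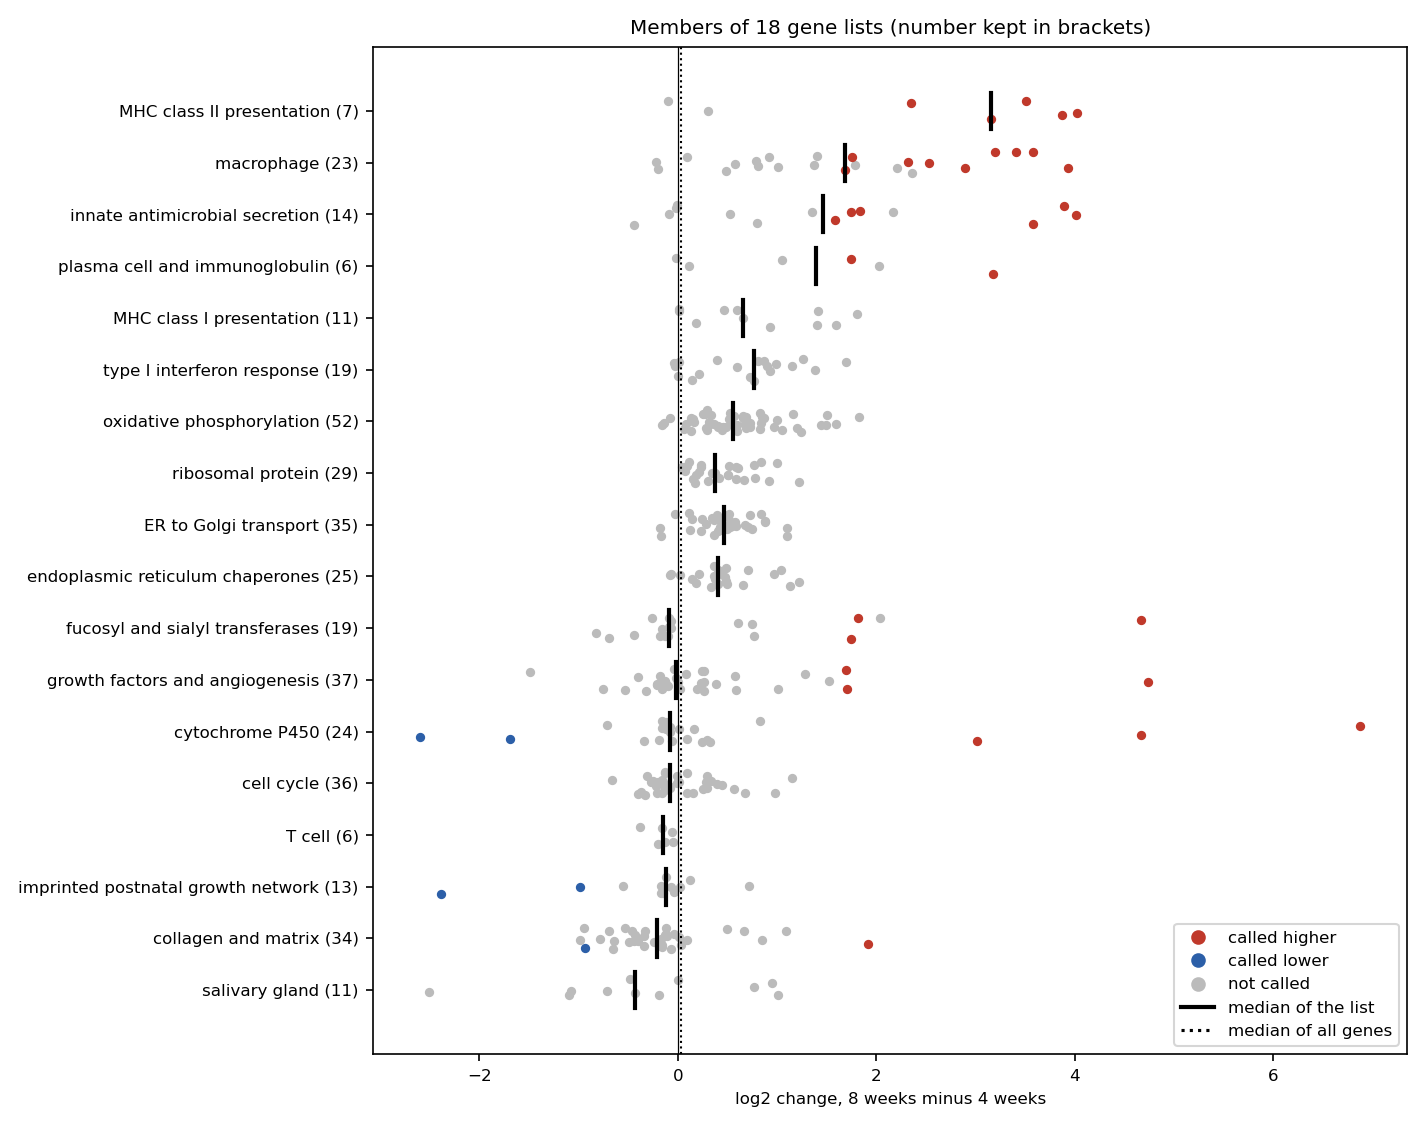
Log2 change (8 weeks minus 4 weeks, horizontal) of each kept member of 18 gene lists, with the number kept in brackets, called members in colour and the list median as a black bar; vertical scatter within a row has no meaning. MHC class II (median 3.15) and macrophage genes (1.68) lie right of the median of all genes (0.03, dotted), and cytochrome P450 genes have called members on both sides.

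Whether these changes belonged to the interval from 4 to 8 weeks was asked by testing their difference from the next one, 8 to 12 weeks, in the same limma fit. The test called 17 genes (0.137 percent), of 742 at an unadjusted p under 0.05, and 15 of these were also called between 4 and 8 weeks. Both intervals share the arrays of 8 weeks, so a high or low value there moves the difference by itself. The mean of 5530400C23Rik was 12.04, 2.92, 2.80, 2.99 and 3.09 from 4 to 20 weeks, and its first change minus its next was -9.01 ± 0.63 SE (adjusted p = 9.56e-09). Cyp4a12a averaged 4.55, 11.43, 10.87, 10.09 and 9.14 at the same ages, a difference of 7.43 ± 0.78 (adjusted p = 1.24e-05). Ly6f averaged 4.82, 11.87, 11.99, 11.67 and 11.20, a difference of 6.92 ± 1.01 (adjusted p = 0.00158). In these 3 genes the mean at 12 weeks lay within 1 log2 unit of that at 8 weeks.

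The 6 genes given next had a lower mean at 12 than at 8 weeks. Fut4 averaged 3.07, 7.74, 5.88, 6.35 and 4.64 (difference 6.54 ± 1.16, adjusted p = 0.013) and Piwil4 3.80, 7.17, 6.13, 7.24 and 6.40 (4.41 ± 0.89, adjusted p = 0.0478). For Fos the means were 2.46, 4.55, 3.54, 3.65 and 3.12 (3.09 ± 0.51, adjusted p = 0.006). Irak3, a brake on Toll-like receptor signalling, averaged 3.65, 5.08, 4.01, 4.06 and 3.73 (2.51 ± 0.38, adjusted p = 0.00228). Gpr160, an orphan receptor, averaged 3.52, 5.29, 4.99, 4.59 and 3.72 (2.06 ± 0.41, adjusted p = 0.0453), and Mrpl19, a mitochondrial ribosomal protein, 4.01, 5.17, 4.14, 4.57 and 4.27 (2.18 ± 0.44, adjusted p = 0.0478). Piwil4 was high again at 16 weeks, and the others were highest at 8 weeks. The first change of Irak3 was at least 1.43 ± 0.24, of Gpr160 at least 1.77 ± 0.26 and of Mrpl19 at least 1.15 ± 0.27, all from near background (limma adjusted p = 0.00207, 0.00066 and 0.0357). Without 4 weeks replicate 2 that of Mrpl19 did not pass (adjusted p = 0.111). The difference was 1.48 ± 0.20 for Galnt11 (adjusted p = 0.00076), -1.74 ± 0.24 for Slc16a12 (adjusted p = 0.00094) and -1.08 ± 0.22 for Tmem117 (adjusted p = 0.0482). Cyp2j13 averaged 5.23, 9.90, 9.41, 8.35 and 7.45 and Pgf 3.05, 7.79, 7.86, 5.64 and 5.99, and their differences of 5.16 ± 1.11 and 4.67 ± 1.16 did not pass (adjusted p = 0.0682 and 0.13). The number of genes called by this test was 9 without 8 weeks replicate 1 or 4, 10 without 4 weeks replicate 2, 38 without 20 weeks replicate 1 and 49 without 8 weeks replicate 6.

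**Figure D5:**
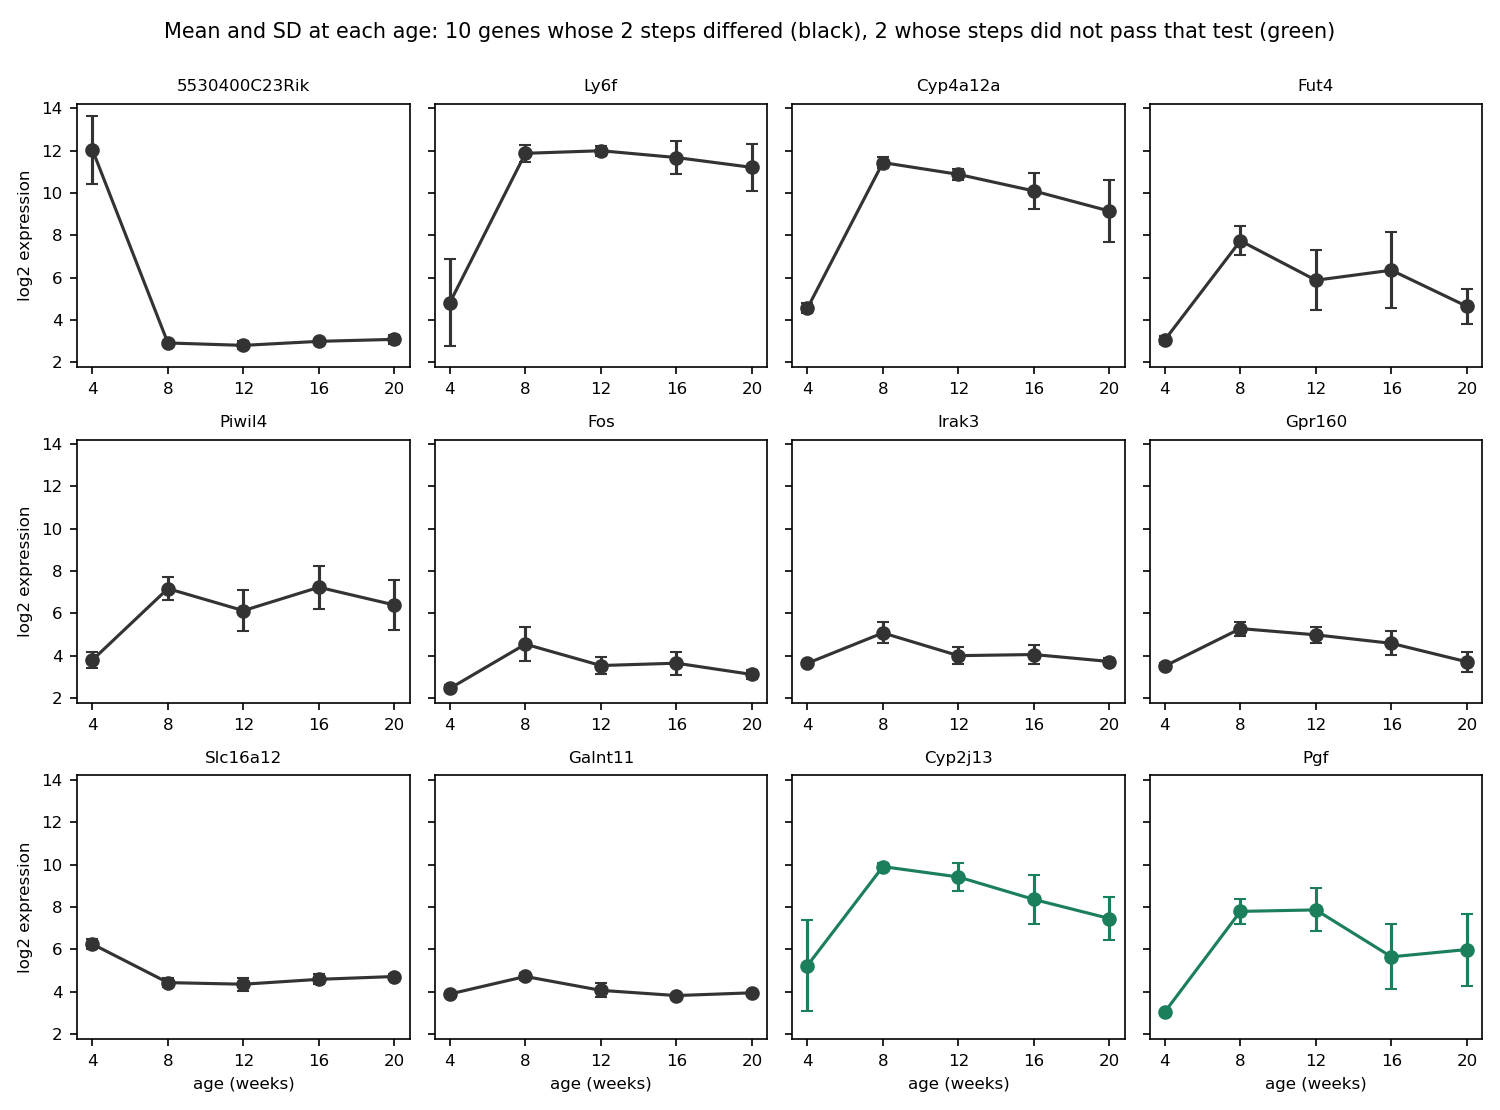
Mean log2 expression with SD (bars) at 4, 8, 12, 16 and 20 weeks (4, 6, 6, 5 and 5 arrays) for 10 genes whose change from 4 to 8 weeks differed from that from 8 to 12 weeks (black), and for Cyp2j13 and Pgf, which did not pass that test (green). 5530400C23Rik drops from 12.04 to 2.92 and stays there, while Ly6f and Cyp4a12a reach 11.87 and 11.43 at 8 weeks.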

How the data were processed

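Lacrimal gland RNA of 26 samples was measured on Affymetrix mouse arrays with 45101 probe sets. The deposited values are on a log2 scale. RMA and GCRMA are both named in the submitters' processing notes, with no word on which made these values. Array medians at the ages compared ran from 2.97 to 3.15.

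Of the probe sets 34958 name 1 gene in the platform annotation, 932 several and 9211 none. Each of 18194 genes was represented by its probe set of highest mean log2 value over all 26 arrays. Genes were kept when at least 4 of the 26 arrays exceeded the array's median, with no further scaling. limma 3.58.1 in R 4.3.3 fitted all 5 ages, so that the other ages contribute to the spread, and p-values were adjusted by Benjamini-Hochberg over 12377 genes, with calls at 0.05. The number of arrays limits the precision, and the median SE was 0.26. Tested on simulated data with 200 changed genes, the 8 against 4 week fit found 29 percent at 1.5-fold, 53.5 percent at 2-fold and 82.5 percent at 4-fold.

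The members and the gene lists were chosen with earlier results of these data known. Of 1655 genes in 66 lists 1129 were kept. Named genes are the 25 highest changes, all lower genes, up to 6 called members of each list by smallest p (up to 3 members as values where under 2 were called), all members of 6 short lists and the 10 largest differences between intervals; the text gives those it describes. Alternatives covered normalization, filter, probe set choice, array weights, covariates, a replicate block and leaving out arrays.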

Additional observations from a re-analysis of the deposited data

Results flagged for a closer look

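Single arrays stood apart from the rest of their age in 13 of 176 groups of values examined, by the gap to the nearest array over the range of the age. Chance flags about 1 in 20 groups. Smgc stood at 14.48 on 4 weeks replicate 1 and at 7.26 on 8 weeks replicate 1. On 4 weeks replicate 1 the adipose tissue mean (4.63), the keratinised skin mean (4.27) and Ifih1 (6.32) were the highest of their age, and Cdrt4 (3.42) was the lowest. On 4 weeks replicate 3 Fut4 (3.36), Piwil4 (4.38) and Celf4 (5.13) were the highest and Lyz2 (5.73) the lowest. At 8 weeks Bok was lowest on replicate 6 (3.74), Prss22 highest on replicate 6 (4.17) and Celf4 highest on replicate 3 (3.75).

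The change from 4 to 8 weeks differed from that from 8 to 12 weeks, by the limma test of the difference, for 12 described genes. The first minus the next change was -9.01 for 5530400C23Rik, 7.43 for Cyp4a12a, 6.92 for Ly6f, 6.54 for Fut4, 4.41 for Piwil4 and 3.09 for Fos. It was 2.51 for Irak3, 2.18 for Mrpl19, 2.06 for Gpr160, 1.48 for Galnt11, -1.74 for Slc16a12 and -1.08 for Tmem117.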

How the results depend on the processing

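Against 168 changed genes (141 higher, 27 lower) and 17 with different intervals, leaving out 1 array gave 60 to 415 changed, 49 to 354 higher, 11 to 61 lower and 9 to 49 with different intervals. Array weights, whose estimation did not converge, gave 4557 (2672 and 1885) and 552. Without the pair of arrays of lowest spread the counts were 607 (530 and 77) and 68. With the salivary gland mean as a covariate 271 changed (221 and 50). With array spread as a covariate 73 were lower and 46 had different intervals. The latter count was 31 after quantile normalization, 10 with arrays centred on their medians, 35 with only the arrays of the ages compared and 10 with the actin 3′ minus 5′ difference as a covariate. Leaving out replicate 1 of 4 and of 8 weeks together, an alternative chosen after seeing the data, gave 117 changed, 84 higher and 11 with different intervals, and 82 of the 168 were shared.

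Nothing in the labels says that a replicate number marks a shared animal or batch. Deviations of same-numbered arrays correlated at 0.43, -0.09, 0.20 and 0.32 (mean 0.21, against -0.04 for other pairs), and 2 of 4 arrays of 4 weeks correlated best with their own number. So few correlations cannot decide whether the numbers pair the samples. The main fit left pairing out because the labels give none. With the replicate block 93 genes changed (77 and 16), 88 of them shared with the 168, and 24 of 75 described genes were not called, among them Apoe, Ccl8, Cd74, Ctss, Cyp39a1, Ltf, Scd1 and Tyrobp.

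Laptm5 turned to -0.44 without probe sets of the _x and _s kinds and with only the arrays of the ages compared, where another probe set was taken. Aqp5, not called, turned to -0.44 with array spread as a covariate, and the cause was not tested. Of 75 described called genes 39 lost their call in at least 1 refit without 1 array, and 45 in at least 1 alternative of any kind, 13 after quantile normalization and 22 with only the arrays of the ages compared. Of the 168 genes 119 and 105 were called in those settings. Sizes given as at least rest on a group mean near background, and whether they are too small or too large was not tested.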
